A study of Rattus norvegicus with 3 samples.

Results

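The genes described here handle haem and iron in rat donor kidneys perfused with blood after a period of warm ischaemia and a night of cold storage. The list of names was Hmox1, Hmox2, Blvra, Blvrb, Alas1, Alas2, Fth1, Tfrc, Tf and Cp, and a gene was taken in when a probe set of the array carried its symbol and no other. That rule found 8 of the 10 names, with 11 probe sets, among 14218 genes on the array. Fth1, the heavy chain of ferritin, and Tf, the iron carrier transferrin of plasma, were not found by it: 1 probe set names Fth1 together with another symbol, 2 name Tf together with another symbol, and their values are not used here.

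Kidneys came from male Wistar rats of 370 to 508 g and stood for donation after cardiac death. Every donor kidney, controls included, had 20 min of warm ischaemia, cold storage in University of Wisconsin solution for 17 ± 0.7 h, and then perfusion from the femoral artery of an anaesthetised recipient for 5 h 43 min ± 21 min (the labels do not say what the errors are). Control recipients received normal saline at 1 ml per hour, a second group heparin at 100 U/ml per hour, and the last group a compound labelled peptide 2 at 0.5 mg/ml, which the design text describes as modelled on the part of the chemokine CCL5 that binds heparin. There were 7 recipients per group, and heparin was given to no other group as an anticoagulant. The treatment protocol speaks of an infusion and the design text of a bolus. Each array held a pool of RNA from 3 kidneys of 1 group, chosen for RNA quality, so there are 3 arrays, 1 per group, with no spread between animals, no test and no p-value. The pooled tissue also carries the recipient's blood, and in bulk RNA a smaller number of cells of a type cannot be told apart from less RNA per cell.

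Haem from red cells or worn-out proteins is opened by haem oxygenase, which releases iron, carbon monoxide and biliverdin, and biliverdin reductase turns biliverdin into bilirubin. The freed iron is stored in ferritin or exported. Haem is made again in a chain of steps that opens with 5-aminolevulinate synthase in mitochondria. In the injured kidney the inducible haem oxygenase, HO-1, is known as a stress-response enzyme of tubules and macrophages.

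On the GCRMA log2 scale the arrays had medians of 4.14 (control), 4.16 (heparin) and 4.14 (peptide), and a gene counted as measured when it was at or above the median on both arrays compared. All 11 member probe sets met this on all 3 arrays. The array label as kidney was met by its proximal tubule markers, of which 11 of 12 were measured against control, while the glucose transporter Slc5a1 was at the lowest value, 2.18. The 3' minus 5' distance of the beta-actin control probe sets, a sign of RNA quality, was 2.33 in control, 2.95 in heparin and 2.34 in peptide, and for GAPDH it was 0.36, 0.32 and 0.37. Its part in the differences below was not tested.

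The haem-degrading enzyme Hmox1 and the erythroid haem-synthesis enzyme Alas2 were lower in heparin than in control, each by slightly more than 2-fold. The biliverdin reductases Blvra and Blvrb and both probe sets of the transferrin receptor Tfrc were lower there as well, while the ferroxidase Cp was higher. In the peptide pool Hmox1 and Alas2 were lower by a smaller amount, and Alas1, the housekeeping form of the synthase, was higher. Of the 8 genes, 2 lay 2-fold or more below control in heparin and 0 lay 2-fold or more above it, where 0.747% and 1.06% of all 9236 measured genes did. None of the 8 was 2-fold apart in peptide against control (0.842% of 9268 genes in either direction) or in heparin against peptide (1.13% of 9240 genes). When each array was centred on its median above the lowest value, 1 of the 8 was still 2-fold lower in heparin than in control (Hmox1). With 8 genes and 1 array a group these counts describe the arrays only. The members were chosen with earlier results of these data known, so the counts are no test of the family.

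**Figure D1:**
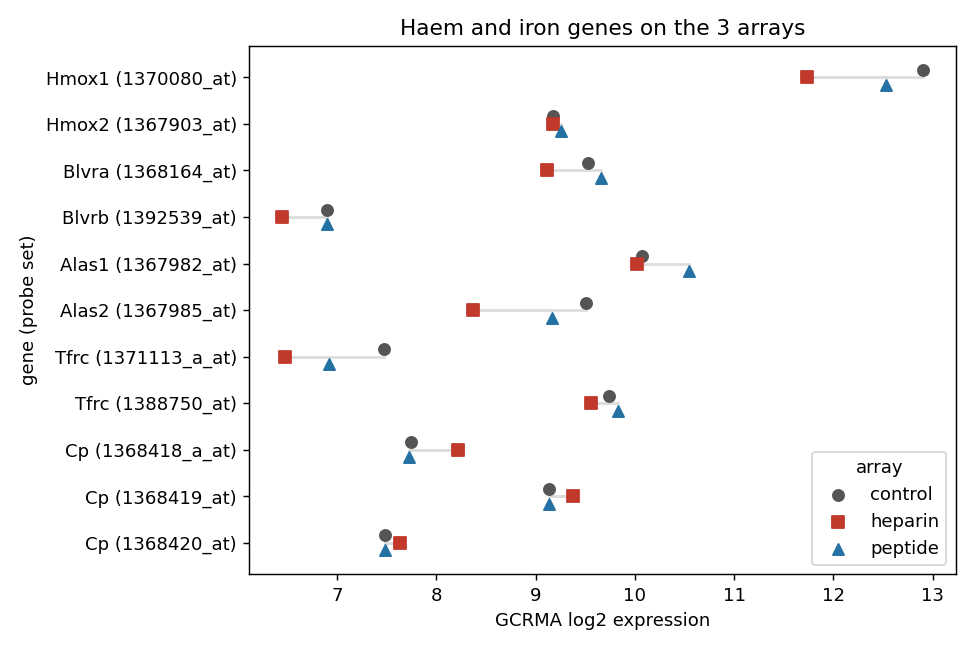
GCRMA log2 expression (x axis) of the 11 probe sets (rows) on the control (grey circles), heparin (red squares) and peptide (blue triangles) arrays, 1 array per group, each a pool of 3 kidneys. Levels of different probe sets are not comparable with each other; within a row, the heparin array was lowest for Hmox1, Alas1, Alas2 and the Tfrc and biliverdin reductase probe sets, and highest for all 3 probe sets of Cp.

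Haem breakdown comes first. Hmox1 encodes HO-1, and its probe set (1370080_at) read 12.91 in control, 11.74 in heparin and 12.53 in peptide. The control array was the highest and the heparin array the lowest. The log2 difference from control was -1.17 in heparin, or 2.25-fold lower, and -0.38 in peptide, or 1.30-fold lower. In heparin against control, 45 of the 9236 measured genes had a lower difference than Hmox1, and in peptide against control 215 of 9268 did. Heparin and peptide differed by -0.79 (1.73-fold lower in heparin). Macrophages are another source of HO-1. Of 10 macrophage markers measured, 6 were higher and 1 lower in heparin than in control, where 25.8% and 44.2% of all measured genes were. Cd68 read 7.07 in control, 7.55 in heparin and 6.99 in peptide. The summed log2 level of the 11 macrophage markers on the array was 79.8 in control, 81.4 in heparin and 80.1 in peptide, and Cd163, the receptor for haptoglobin-bound haemoglobin, lay at the lowest value on all 3 arrays. The part of macrophage content in the Hmox1 difference was not tested.

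Hmox2 encodes the constitutive haem oxygenase, HO-2. Its probe set (1367903_at) read 9.17 in control and in heparin, identical to the last deposited digit, and 9.25 in peptide. The values of the isoforms were thus unlike in heparin against control, at -1.17 for Hmox1 and 0.00 for Hmox2. Identical values were found for 30.1% of all measured genes in this comparison, so the 0.00 does not show equal abundance. The next enzymes of the pathway, the biliverdin reductases, differed by less than Hmox1. Blvra, biliverdin reductase A, read 9.53 in control, 9.11 in heparin and 9.66 in peptide (1368164_at). Blvrb, biliverdin reductase B, which also reduces flavins, read 6.90 in control, 6.44 in heparin and 6.90 in peptide (1392539_at). Heparin was the lowest of the 3 arrays for both reductases. Against control the heparin differences were -0.42 for Blvra and -0.46 for Blvrb, which 7.19% and 6.17% of measured genes lay below. In peptide against control Blvra stood at 0.12 and Blvrb at 0.00.

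Haem synthesis opens with Alas1 in most tissues and Alas2 in the red cell line. Alas2 (1367985_at) read 9.51 in control, 8.37 in heparin and 9.17 in peptide, in the same order of arrays as Hmox1. Its log2 difference from control was -1.13 in heparin, or 2.196-fold lower, with 51 measured genes below it, and -0.34 in peptide, or 1.26-fold lower. Alas1 (1367982_at) read 10.07 in control, 10.02 in heparin and 10.55 in peptide, so the peptide array was the highest. Its peptide difference was 0.48, or 1.39-fold higher, exceeded by 272 of 9268 measured genes. In heparin it stood at -0.05, and at 0.09 when each array was centred on its median above the lowest value.

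Because Alas2 is an erythroid gene, the red cell and reticulocyte markers belong beside it. Of 14 such names 10 were on the array and 5 were measured. Haemoglobin beta, Hbb, whose probes can also match related sequences, read 14.86 in control, 14.63 in heparin and 14.80 in peptide, and Hba-a3, an alpha globin, 10.94, 10.08 and 10.70. Both globins were lowest in heparin, though Hbb by only 0.24 on the log2 scale. The membrane protein Gypc went the other way, at 6.95, 7.95 and 7.51. The anion exchanger Slc4a1, which kidney also makes in intercalated cells, had 7.96, 7.96 and 8.31, and its other probe set had 7.22, 7.12 and 7.22. Bpgm, a red cell enzyme of glycolysis, had 9.98, 9.84 and 9.86 in its brighter probe set. The dimmer probe set of Bpgm had 9.12, 8.24 and 9.03, a heparin difference of -0.88, with the arrays in the same order as for Alas2. The median heparin difference of the 5 was -0.13. The summed log2 level of the 10 was 61.9 in control, 61.6 in heparin and 62.3 in peptide. That sum includes genes that were not measured and the opposite difference of Gypc, so it is not a measure of red cell content. The defining markers Epb42, Rhag and Klf1 were at the lowest value on every array. The part of red cell content in the Alas2 difference was not tested.

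**Figure D2:**
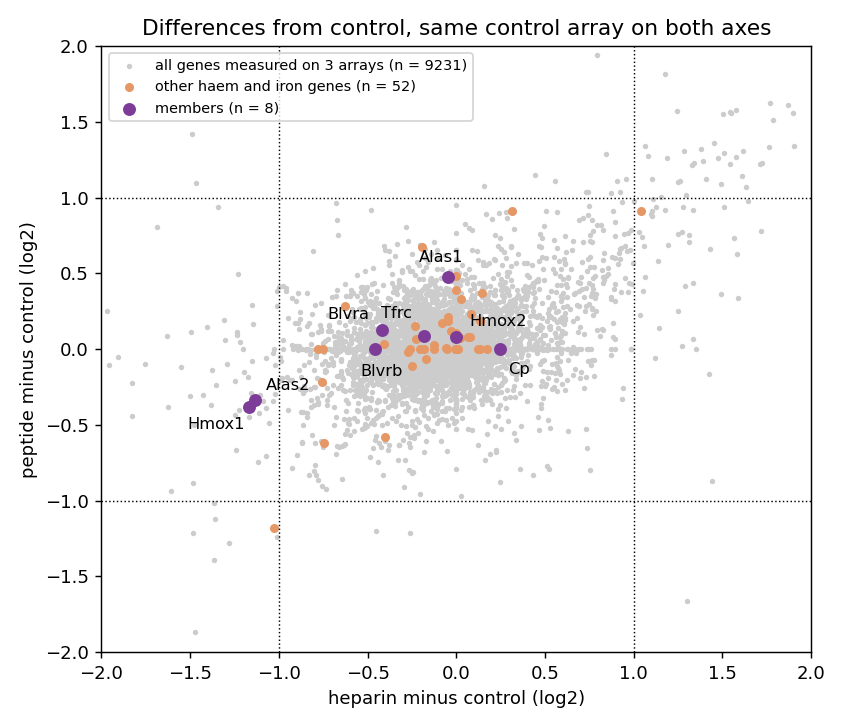
Log2 difference from control in heparin (x axis) and in peptide (y axis) for 9231 genes measured on all 3 arrays (grey), 52 other haem and iron genes (orange) and the 8 members (purple). Both axes share the control array, so they are not independent; dotted lines mark 2-fold, 21 genes lie outside the axes, and Hmox1 and Alas2 lie side by side left of the line at -1.

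The genes nearest to Hmox1 and Alas2 were sought by distance in the plane of the heparin and peptide differences from control. Levels of expression played no part in this distance. The search covered 9187 genes, which are the 9231 measured on all 3 arrays without those named only by a locus number. The nearest to Hmox1 was Alas2 itself, at a distance of 0.056. Next came Nat8f1, at -1.23 in heparin and -0.40 in peptide, and the antiviral GTPase Mx2, at -1.17 and -0.45. A further probe set of Mx2 read 8.80 in control, 11.26 in heparin and 10.74 in peptide, the opposite direction. The nearest to Alas2 were F3, tissue factor (-1.09 and -0.34), Plin2, a coat protein of lipid droplets (-1.10 and -0.30), and Ephx1, the microsomal epoxide hydrolase (-1.16 and -0.29). A further probe set of Plin2 stood at 0.05 in heparin. Likeness over 3 arrays that share a control is a description and says nothing of shared control of these genes.

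Iron uptake was read by Tfrc, the receptor that takes up transferrin-bound iron, through 2 probe sets that did not give the same size of difference. The brighter (1388750_at) read 9.74 in control, 9.56 in heparin and 9.83 in peptide. The dimmer (1371113_a_at) read 7.47 in control, 6.48 in heparin and 6.92 in peptide. In heparin against control they stood at -0.18 and -0.997, both lower. In peptide against control they stood at 0.09 and -0.55, in opposite directions. The dimmer one missed the 2-fold line only narrowly, at 1.996-fold, and the mean of both probe sets gave -0.59 in heparin and -0.23 in peptide. The direction for Tfrc in peptide therefore depends on the probe set.

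Transcription of Tfrc is known to respond to hypoxia through a short element in its promoter, so the stretch before its start site is shown. RefSeq sequence (GRCr8, chr11:81690319-81690418, minus strand) gives the 100 bases before the start, 5' to 3', with the core letters ACGTG of the hypoxia response element in capitals.
Tfrc: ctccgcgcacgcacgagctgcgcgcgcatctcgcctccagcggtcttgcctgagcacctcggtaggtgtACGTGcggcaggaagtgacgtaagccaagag
The match starts 31 bases before the start site. Windows of 250 bases before to 50 after a start were given for 8 of the 10 names, 9 windows in all, and ACGTG on either strand was found in those of Tfrc and Hmox2 (1 of the 2 Hmox2 windows) and in 19.3% of 33469 windows of that length. The letters TGACNNNGC of the antioxidant response element, on either strand, were found in the windows of Blvra and Hmox2 (again 1 of the 2 Hmox2 windows) and in 12.1% of all windows. A match of letters is not evidence of binding, and no window was given for Hmox1 or Fth1.

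Cp encodes ceruloplasmin, the copper-carrying ferroxidase that oxidises exported iron so that transferrin can bind it. It was the one member that was higher in heparin than in control, in all 3 of its probe sets. The brightest (1368419_at) read 9.14 in control, 9.38 in heparin and 9.14 in peptide. The second (1368418_a_at) read 7.74, 8.22 and 7.72, and the dimmest (1368420_at) 7.48, 7.64 and 7.48. Against control the heparin differences were 0.24, 0.48 and 0.15, all under 1.5-fold, and 8.62% of measured genes lay above the first. In peptide against control they were 0.00, -0.02 and 0.00. Ceruloplasmin is best known as a liver protein, and the liver markers Apoa1, Serpina1 and Ahsg were within 0.01 of the lowest value on all arrays, while Alb read 4.94, 4.94 and 2.77, above and then below the array median. Of 9 liver markers 3 were measured in heparin against control, with 0 at least 2-fold apart (1.81% of all measured genes) and a median of 0.00. Besides Alb these were F2, at 4.98, 4.98 and 5.74, and Fgb, at 6.76, 6.56 and 5.81 in its brightest probe set. Further probe sets of Fgb lay at the lowest value on all arrays. The part of liver-type transcripts in the Cp difference was not tested.

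Set side by side, heparin and peptide differed in 1 direction for most members. Of the 8 genes, 7 were lower in heparin than in peptide and Cp was higher, where 43.7% of 9240 measured genes were lower in heparin by any amount. The differences were -0.80 for Alas2, -0.79 for Hmox1, -0.54 for Blvra, -0.53 for Alas1, -0.46 for Blvrb, -0.27 for Tfrc, -0.08 for Hmox2 and 0.24 for Cp. The median of the 8 was -0.49, beside 0.00 over all measured genes. As the members were chosen with earlier results of these data known, these counts and medians do not test the family. When arrays were centred on their medians above the lowest value, all genes moved up by 0.14 in heparin against control and against peptide, and 6 of the 8 were then lower in heparin than in peptide, as were 26.3% of all measured genes. Hmox2 was the gene that turned, to 0.06. Against control, 6 of the 8 were lower in heparin (44.2% of all measured genes) and 5 after centring (25.9%). In peptide 4 were higher (32% of all measured genes), 2 lower (28.5%) and 2 identical. As 30.1% of all measured genes were identical in heparin and control to the last digit, a difference of 0.00 does not show equal abundance.

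**Figure D3:**
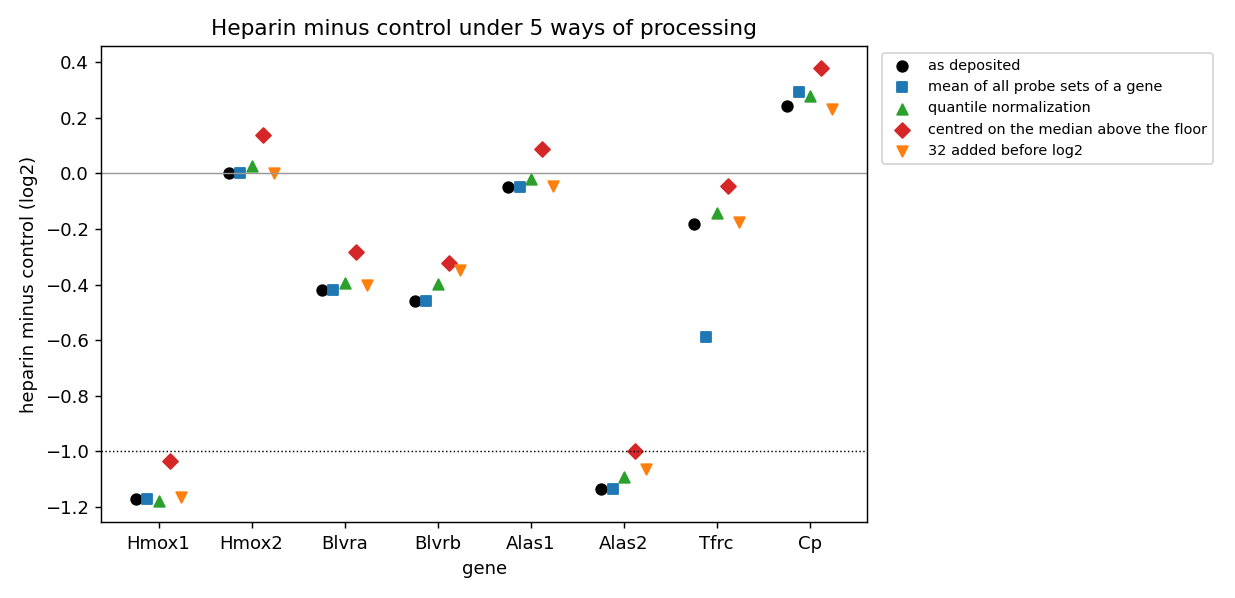
Heparin minus control log2 difference (y axis) of the 8 members (x axis) with values as deposited (black circles), the mean over each gene's probe sets (blue squares), quantile normalization (green triangles), centring (red diamonds) and 32 added before taking logs (orange triangles). The dotted line marks 2-fold lower: Hmox1 stayed below it at -1.03 or less, Alas2 reached -0.998 after centring, and Tfrc moved most, from -0.18 to -0.59, with the mean of its probe sets.

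The rest of the pathway was read through 75 further names, of which 67 were on the array and 52 were measured. In heparin against control 1 of the 52 lay 2-fold or more above and 1 below, beside 1.06% and 0.747% of all measured genes, and the median was -0.02. In peptide against control 0 lay 2-fold or more above and 1 below, beside 0.723% and 0.119%, with a median of 0.00. In heparin against peptide 0 were 2-fold apart and the median was -0.13. Of the 52, 27 were lower and 13 higher in heparin than in control, which became 18 and 34 after centring and 25 and 27 after quantile normalization. Of all measured genes 44.2% were lower and 25.8% higher in that comparison, which became 25.9% and 74.1% after centring and 39.3% and 60.5% after quantile normalization. Against peptide, 34 were lower and 7 higher in heparin (43.7% and 26.8% of all measured genes), and 24 and 28 after centring (26.3% and 73.7%). In peptide against control 24 were higher and 9 lower (32% and 28.5% of all measured genes), and 24 and 28 after centring (31.1% and 68.9%).

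Among the later steps of haem synthesis 10 genes were measured and 0 were 2-fold apart in any comparison. Over all measured genes 1.81% were 2-fold apart in heparin against control, 0.842% in peptide against control and 1.13% in heparin against peptide, so 0 of 10 is near the background. Alad, which follows the synthase, read 9.53 on all 3 arrays. Cpox, coproporphyrinogen oxidase, read 8.31 in control, 7.90 in heparin and 7.73 in peptide, lower in both treated pools. Abcb10, a mitochondrial transporter that acts in haem synthesis, read 7.47, 7.78 and 8.38 and was 1.88-fold higher in peptide, but its other probe set read 7.01, 6.75 and 7.04. The ferrochelatase Fech, which inserts the iron, read 8.53, 8.35 and 8.61.

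Among genes that carry or scavenge haem, 9 of 14 were measured and 0 were 2-fold apart in any comparison. Between 0.842% and 1.81% of all measured genes were, depending on the comparison, so 0 of 9 is near the background. Flvcr1, the haem exporter of the plasma membrane, read 6.22 in control, 5.45 in heparin and 6.22 in peptide, 1.72-fold lower in heparin. Haptoglobin, Hp, which binds free haemoglobin, read 8.19, 8.34 and 8.56, and haemopexin, Hpx, was at the lowest value on all arrays. Megalin (Lrp2) and cubilin (Cubn), the proximal tubule receptors that take up filtered proteins, lay within 0.17 of control in both treated pools.

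Iron uptake and reduction genes held the one pathway gene past 2-fold in both treated pools. Lcn2, lipocalin 2, which binds iron-loaded siderophores and is released by injured tubules and neutrophils, read 10.26 in control, 9.23 in heparin and 9.08 in peptide. It was 2.04-fold lower in heparin and 2.26-fold lower in peptide, with both differences taken against the same control array. In heparin it was no longer past 2-fold after quantile normalization, after centring or with 32 added before log2. Slc39a8, a zinc and iron importer, read 8.07, 8.07 and 8.56. The other 7 measured genes of this list were within 0.23 of control, among them Slc11a2, the divalent metal transporter, at 10.18, 10.26 and 10.41.

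The largest differences among storage and export genes lay below control in heparin. Ncoa4, the receptor that delivers ferritin to lysosomes, read 12.17 in control, 11.41 in heparin and 11.95 in peptide, 1.69-fold lower in heparin and 1.16-fold lower in peptide. Bdh2, an enzyme linked to a mammalian siderophore, read 10.09, 10.22 and 10.27. Slc40a1, ferroportin, the exporter of cellular iron, read 9.15, 8.41 and 8.54 in its brightest probe set, 1.68-fold lower in heparin and 1.53-fold lower in peptide. A second probe set of Slc40a1 read 8.77, 8.46 and 8.48, the same direction with smaller differences, and the remaining probe set was below the median, at 3.84 on all arrays. Neo1, neogenin, a partner of haemojuvelin, read 6.51, 6.10 and 6.54. Hepcidin, Hamp, the hormone that degrades ferroportin, was at the lowest value throughout.

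Regulators and mitochondrial iron genes gave 1 further gene past 2-fold. Ireb2, iron regulatory protein 2, which binds iron-responsive elements in ferritin and transferrin receptor mRNA, read 6.74 in control, 5.99 in heparin and 6.74 in peptide. Its relative Aco1, iron regulatory protein 1, read 11.27, 11.02 and 11.16. Maff, a small Maf partner of the Hmox1 regulators NRF2 and BACH1, read 9.77, 9.15 and 10.06 and differed by -0.91 between heparin and peptide. Nfe2l2, the gene of NRF2, read 11.09, 11.11 and 11.17, and Bach1, the repressor of Hmox1, was below the median on all arrays, at 2.68, 3.23 and 2.68. Slc25a28, mitoferrin 2, which brings iron into mitochondria, read 8.84, 9.88 and 9.75, 2.06-fold higher in heparin (under 2-fold with 32 added before log2) and 1.88-fold higher in peptide. Slc25a37, mitoferrin 1, the form of red cell precursors, read 8.20, 8.01 and 8.87, higher in peptide. Of the 9 measured mitochondrial genes 7 were higher and 0 lower in peptide than in control, with a median of 0.18. Of all measured genes 32% were higher, 28.5% lower and 39.5% identical, and their median was 0.00. Among the pathway lists this was the most one-sided in peptide. A second probe set of Isca1, a gene of this list, stood at -0.01 in peptide. In heparin against control 2 of the 9 were higher and 5 lower (25.8% and 44.2% of all measured genes), with a median of -0.04.

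**Figure D4:**
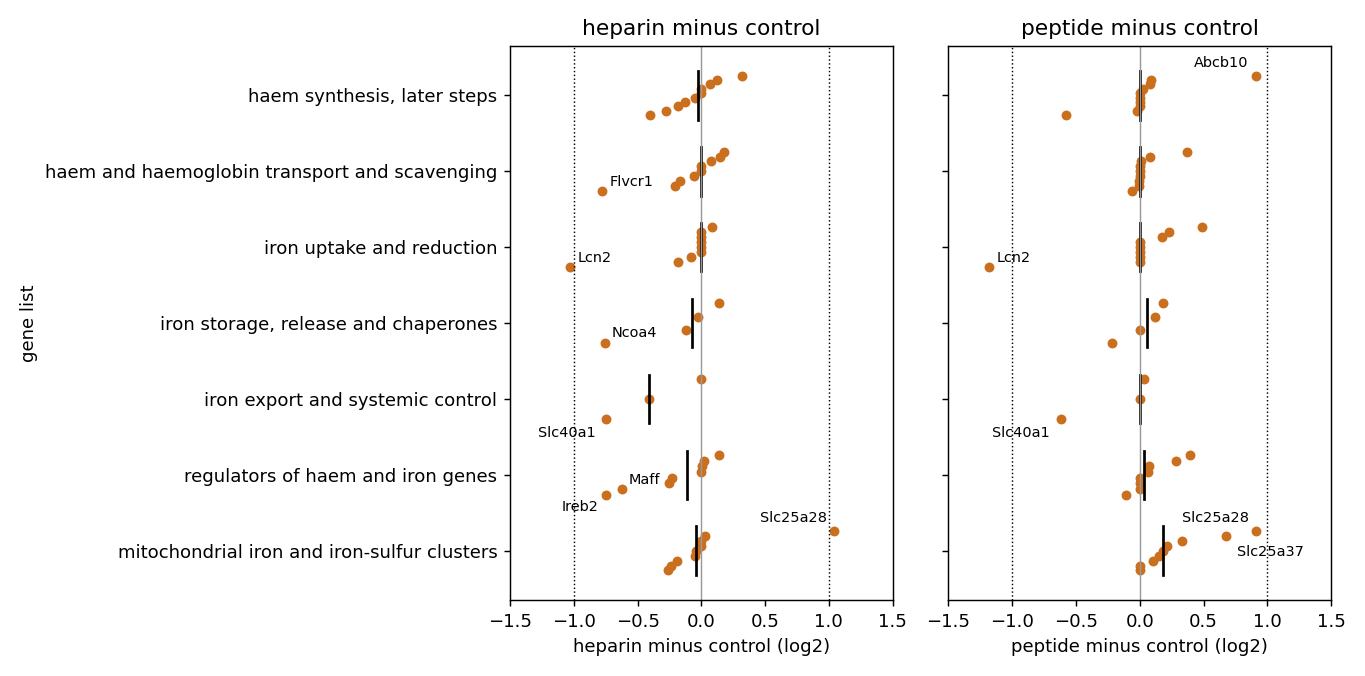
Log2 difference from control (x axes) of the 52 measured haem and iron genes that are not members, by list (rows), in heparin (left) and peptide (right); each point is 1 gene, the black bar is the median of the list, and dotted lines mark 2-fold. Lcn2 lies past the left line in both panels, and Slc25a28 past the right line with heparin only, at 1.04 against 0.91 with peptide.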

How the data were processed

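Each of the 3 arrays was hybridised with biotin-labelled cRNA from 6 µg of pooled RNA. The authors deposited log2 expression values per probe set for 31099 probe sets; the submitters' processing notes name GCRMA, which corrects background by probe sequence and summarises each probe set, with version and settings not given in the sources used here. Symbols came from the platform annotation: 20832 probe sets had 1 symbol, 436 several, and only the former were named. For the 11 member probe sets the gene ID carried the same symbol in RefSeq (GRCr8).

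From these values a gene was read by its probe set with the highest mean, counted as measured at or above the array median (50th percentile) on both arrays, and compared as a difference of log2 values with a 2-fold line. No test was possible with 1 array per group. Counting was tested on simulated data. Alternatives were filters at the 40th and 60th percentile or none, the mean of probe sets, quantile normalization, centring, 32 added before log2, and 1.5-fold. All members with every probe set were named, and from each pathway list the 2 measured genes with the largest difference from control and all past 2-fold; other pathway and marker genes were named after their values were seen. Members and lists were chosen with earlier results of these data known. Python 3.11.15, numpy 2.4.6 and pandas 2.3.3 were used. Arrays have no read depth, and their number limits the precision.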

Additional observations from a re-analysis of the deposited data

How the results depend on the processing

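No paired analysis was possible because each group has 1 array and no replicate number. The count of members at least 2-fold apart in heparin against control was 1 instead of 2 after centring, where Alas2 stood at -0.998 and Hmox1 at -1.03, and it stayed at 2 under the other 7 alternatives. At 1.5-fold, 2 of the 8 members were apart in heparin against peptide, against 0 at 2-fold, where 6.19% of all measured genes were 1.5-fold apart. For the other pathway genes, the 2 past 2-fold in heparin against control became 1 after quantile normalization, 1 after centring, 0 with 32 added and 7 at 1.5-fold. The 1 in peptide against control became 5 at 1.5-fold, and the 0 in heparin against peptide became 5, all of 52 genes. Of all measured genes, 6.41% were 1.5-fold apart in heparin against control, 3.03% in peptide against control and 6.19% in heparin against peptide. The pathway median became 0.12 in heparin against control after centring. In heparin against peptide it became 0.017 after centring and -0.016 with no filter. By construction, centring moved all measured genes by 0.14 in heparin, an added offset shrinks differences and a lower line counts more genes. With no filter 67 pathway genes were counted instead of 52. Those identical in heparin and peptide rose from 11 to 25, which moves the median toward 0. For the change after quantile normalization the cause was not tested. A median or a gene difference was taken as moved when it differed by 0.1 or more on the log2 scale, as no replicates give a spread. A count was taken as moved when it changed by more than 1.5-fold, or to or from 0.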
